A study of Homo sapiens with 3 samples.

Results

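The capture design behind 3 branchpoint libraries of K562, a human line grown from a chronic myeloid leukaemia, lists 377858 genomic intervals, of which 363390 lie on chromosomes 1 to 22. Of these, 7128 (1.96%) were wider than 101 nt, at most 200 nt, and had a gap of 30 to 400 nt to the interval on either side. They were chosen by these widths and gaps alone, and they covered 1020 kb, or 2.82% of the targeted bases on those chromosomes. The 3 libraries are biological replicates of ribosome-depleted RNA from the same untreated line and form 1 group, with ERCC spike-in RNA at 1% in replicates 1 and 2 and 1.08% in replicate 3. The list is common to all of them, holds no value per library, and carries 1 deposited score per interval. No source used here says what that score measures, and the sequencing depth behind it, if any, is unknown. K562 identity could not be read from these intervals: none of 11 K562 marker genes fixed for this check (such as KLF1 and HBG1) had a matched interval (GATA1, also on the list, lies on chromosome X, outside the rule), and 2 of 6 markers of other tissues did.

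An intron is cut out of a transcript by the spliceosome. SF1 and then the U2 particle recognise the branchpoint near the intron's 3′ end, and the cut 5′ end is joined to that base to form a lariat. In long introns the splice sites are first paired across the exon, whereas in short introns they can be paired across the intron itself, with the 5′ splice site and the branchpoint close together. The design targeted the 100 nt at each end of an intron, so in an intron of up to about the sum of these ends the targets meet and the whole intron becomes 1 interval, from 5′ splice site to branchpoint and 3′ splice site.

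The intervals were checked against introns of GENCODE release 29 by length alone, because that annotation lies on another genome build (GRCh38) than the deposited hg19 coordinates. The gap before, the width and the gap after were compared with the lengths of an exon, its intron and the next exon in any transcript of the same chromosome. With the intron taken as 1 nt longer than the interval and each exon as 1 nt shorter than the gap, 5244 of 7128 intervals (73.6%) matched all 3 lengths exactly. At the other 24 of 25 offsets tried, at most 59 matched. The same lengths looked up on the next chromosome gave 7 matches, and 16 and 4 on the chromosomes 2 and 3 further on. These values go with the label of whole introns for the matched intervals, which are introns of 103 to 201 nt.

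Of the matches, 4911 pointed to a single gene and 333 to several genes with equal lengths. Along the chromosomes, 4906 of the 4911 (99.9%) followed the order of the annotation or stood next to a match in the same gene that did. The number in strict order was not counted separately. The 5 others were given no gene name. The named introns lay in 2953 genes, 4709 of them in protein-coding genes, 66 in lincRNA genes, 43 in antisense genes and 70 in pseudogenes. The minus strand held 2522 (51.4%) and the plus strand 2384. A remainder of 1884 intervals (26.4%) matched no transcript, and what they hold was not determined. The share matched was lowest on chromosome 1 (51.0%) and chromosome 2 (61.4%), and highest on chromosome 18 (93.1%). With 1 nt of tolerance on each length, 6136 intervals (86.1%) matched, and 69 on the next chromosome.

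Exon sequence between consecutive members shows what the gaps contain. Intron sequence is not printed, since no hg19 genome was at hand. The first set is from COL11A2, which encodes an α chain of type XI collagen, a fibrillar collagen of cartilage, and holds a run of 6 consecutive members on the minus strand of chromosome 6. The 5 exons between them are given from GENCODE release 29 in the sense strand, in order of their hg19 position. Capitals mark in-frame glycine codons, the first codon of each Gly-X-Y triplet of the collagen helix.
Exon after chr6:33138157-33138332: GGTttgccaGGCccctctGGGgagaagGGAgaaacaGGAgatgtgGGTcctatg
Exon after chr6:33138388-33138585: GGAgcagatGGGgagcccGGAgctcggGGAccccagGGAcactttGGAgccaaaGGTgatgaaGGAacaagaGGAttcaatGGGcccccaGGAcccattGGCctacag
Exon after chr6:33138695-33138889: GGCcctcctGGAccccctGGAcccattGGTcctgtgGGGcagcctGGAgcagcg
Exon after chr6:33138945-33139046: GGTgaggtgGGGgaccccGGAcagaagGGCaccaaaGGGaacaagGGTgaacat
Exon after chr6:33139102-33139242: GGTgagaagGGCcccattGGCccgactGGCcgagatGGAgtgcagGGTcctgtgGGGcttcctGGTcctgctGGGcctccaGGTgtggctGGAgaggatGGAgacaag
The shorter exons are 54 nt long with 6 glycine codons among 18, and the longer ones 108 nt with 12 among 36. Each begins and ends on a whole triplet.

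The second set shows exon junctions across members with middle to high scores, from NXF1, the main receptor for mRNA export from the nucleus, and SHKBP1, which encodes a binding partner of the adaptor protein SH3KBP1. Each line gives the last 15 bases of 1 exon and the first 15 of the next in the spliced transcript of GENCODE release 29, and capitals mark the last 3 bases before and the first base after the removed intron.
NXF1, intron 9 of 21: gagaacatccctGAGCtattgtccttgaac
NXF1, intron 8 of 21: tccgttcagaccCAGAtttggtggcccaga
NXF1, intron 7 of 21: gtagaacagctaAAGCtgatcatgagcaaa
NXF1, intron 6 of 21: cgggagaaccgaAGGAtatctatcatcatc
NXF1, intron 5 of 21: ttcacccctattGAGTttcactatgagaat
SHKBP1, intron 3 of 17: gatgagaccggaGCAAtcttcatcgacagg
SHKBP1, intron 11 of 17: ccatttactacgTGGAtgtgcagaagttcc
Over the 4906 named introns, the upstream exon ended in AG in 53.0% and the downstream exon began with G in 50.6%. Among 44954 introns longer than 201 nt in the same transcripts these shares were 55.7% and 48.5%. Both letters together, AG before and G after, stood at 26.3% of the short introns and 27.3% of the longer ones.

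Members were spread over the whole range of widths, most densely at its narrow end. The median width was 139 nt, with quartiles of 116 and 168 nt. Widths up to 111 nt were the densest, with 1307 members or 131 per nt of width, against 52.3 per nt at 192 to 200 nt. The commonest single width was 111 nt (155 members). Width plus 1 nt, which is the intron length in matched members, had no marked period of 3 nt. Over all 7128 members, matched or not, 32.9% were multiples of 3, 34.5% left 1 and 32.6% left 2. In the annotation, 21106 of 347356 distinct introns of 30 nt or more (6.08%) were 103 to 201 nt long, and the median intron was 1920 nt.

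The lower width limit fell at a step in the list. At the narrowest width allowed, 76.8% of intervals matched an annotated intron. At 101 nt, just outside, lay 584, of which 15.2% matched, and at 100 nt lay 35227, of which 0.36% matched. The mean score was 11.4 at the narrowest width allowed, 9.30 at 101 nt and 7.55 at 100 nt. At the upper limit 54 intervals were 200 nt wide, 81.5% of them matched, and none on these chromosomes with suitable gaps was 201 nt wide. Of intervals within the width range, 62 had a smaller gap of 30 to 34 nt (mean score 9.95), and 70 just outside the rule had one of 25 to 29 nt (mean score 5.11). At the other end, 11 had a larger gap of 396 to 400 nt (mean score 45.8) and 21 had one of 401 to 405 nt (mean score 22.3).

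**Figure D1:**
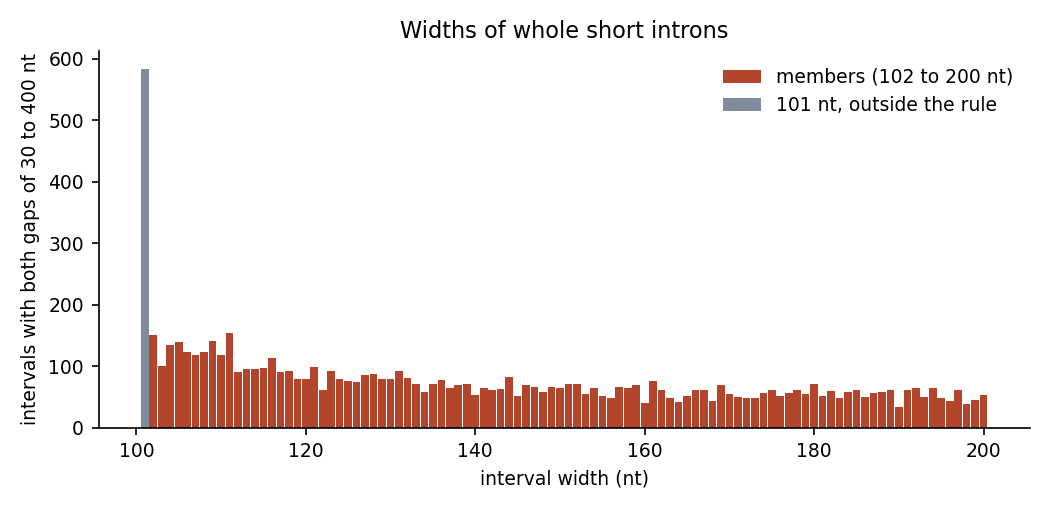
Number of intervals (vertical axis) at each width in nt (horizontal axis), among intervals with both gaps of 30 to 400 nt. Members decline from 131 per nt in the narrowest bin to 52.3 per nt in the widest, and the grey bar at 101 nt, outside the rule, stands at 584.

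The gaps beside members were somewhat shorter than other gaps. Their median was 121 nt, with quartiles of 88 and 163 nt, against 131 nt and quartiles of 93 and 184 nt for 154721 other gaps of 30 to 400 nt. Of the 14256 gaps beside members, 41.8% left 1 when divided by 3, against 37.7% of the other gaps. Beside a matched member a gap is 1 nt longer than its exon, by the matching itself, so a remainder of 1 is an exon of whole codons in length. For members that matched no transcript it was not shown that the gaps are exons. The share was 43.5% beside matched members and 36.9% beside those that matched no transcript. Both gaps left 1 in 1463 members (20.5%). The gaps before and after a member were weakly alike in length, with a Spearman's rho of 0.22 across the 7128 members, which share genes and are not independent.

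Exons of collagen length stood out among these gaps. Gaps of 55 nt, exons of 54 nt, were the commonest, with 217 or 1.52% of gaps beside members against 0.57% of other gaps. Here too a gap between consecutive members, such as those of the COL11A2 run, counts for both of them. Of these 217, 128 (59.0%) lay beside members named as collagen genes, and the share was 0.64% among gaps beside the other members. In 33 members both gaps were 55 nt. Gaps of 109 nt, exons of 108 nt, followed with 205 or 1.44% against 0.76% of other gaps, but 31 of them (15.1%) lay beside collagen members. The next commonest were 127 nt (149 gaps), 115 nt (145) and 85 nt (143).

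**Figure D2:**
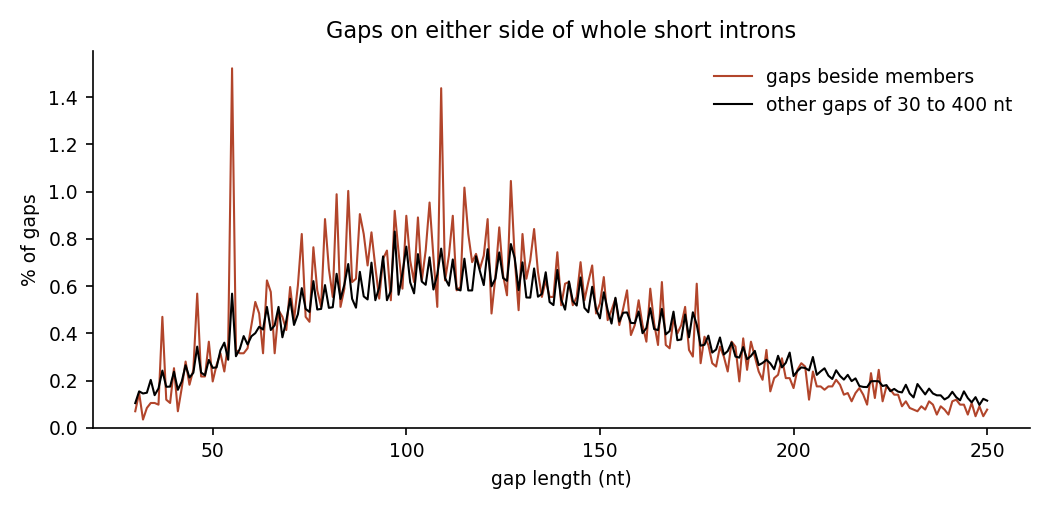
Share of gaps in % (vertical axis) at each gap length from 30 to 250 nt (horizontal axis), beside members in red and elsewhere in black. A gap between consecutive members counts for both of them. The red line peaks at 55 nt (1.52%) and 109 nt (1.44%), where the black line is at 0.57% and 0.76%.

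The intervals beside members had about the make-up of all closely spaced intervals. Of the 14256 places directly before or after a member, 1762 (12.4%) were held by another member, against 14.1% members among the 50728 intervals with both gaps of 30 to 400 nt. A further 1365 (9.57%) held an interval of 70 to 95 nt, against 9.42% in that gap window, and 9809 (68.8%) held one of 100 nt, against 69.4%. These shares were not tested, and not every interval beside a member lies in the gap window itself. A total of 1606 members (22.5%) lay in 725 runs of at least 2, and 123 runs held at least 3. Runs of 4, 5, 6 and 7 members numbered 18, 4, 1 and 1.

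The longest run, of 7 members, lay in CARMIL2, which encodes a regulator of actin capping and T-cell signalling (chr16:67679985-67681410). Its intervals were 104, 114, 195, 114, 141, 106 and 119 nt wide and 6 of the 7 matched. Their scores were 1, 1, 0, 0, 0, 1 and 1, so the whole stretch was at or near 0, as were the intervals before and after it, with 1 each. The COL11A2 run of 6, printed above, spanned 1332 nt and scored 0, 0, 1, 1, 0 and 0.

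Other long runs had high scores. The 5 members in NXF1 (chr11:62568674-62569647) scored 29, 32, 34, 80 and 45, all above the intervals flanking the run, which scored 18 and 8. The 5 members of a run in NOL6, which encodes a nucleolar protein of ribosome production (chr9:33466986-33468317), scored 8, 55, 51, 34 and 5, of which 3 matched. The 5 members of a run in HYOU1, a chaperone gene of the endoplasmic reticulum (chr11:118918819-118920487), scored 38, 73, 24, 66 and 65, of which 2 matched. In the run named for NOL6 the outer members were thus lower than the inner ones, while those of the runs in NXF1 and HYOU1 were all at 24 or more. The intervals flanking the NOL6 run scored 13 and 65, the latter above all 5 members. Those flanking the HYOU1 run scored 40 and 36, within the range of its members. The unmatched intervals of these runs carry no gene name of their own.

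Among the 123 runs of at least 3, every member scored above 0 in 66, every member scored 0 in 23, and 34 were mixed. The median range of score within a run was 5 and the largest was 78.

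The share of members differed between chromosomes. They made up 4.21% of intervals on chromosome 19 (777 members), 3.68% on chromosome 17 (727) and 2.88% on chromosome 16 (424). The lowest shares were 0.80% on chromosome 21 (35 members), 0.95% on chromosome 13 (72) and 1.02% on chromosome 5 (180), and the median of the 22 chromosomes was 1.77%. Chromosomes 17 and 19 together held 21.1% of members and 10.5% of intervals. Across the 22 chromosomes the share rose with the targeted kb per Mb (Pearson's r = 0.86, Spearman's rho = 0.76), also without chromosomes 17 and 19 (r = 0.62, rho = 0.68). Chromosome 22, next after chromosomes 19 and 17 in targeted density at 22.2 kb per Mb, stood apart from this with a share of 1.74%, below the median. This is a description, since close spacing is part of the rule. The median width ran from 125 nt on chromosome 18 to 149 nt on chromosome 9.

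**Figure D3:**
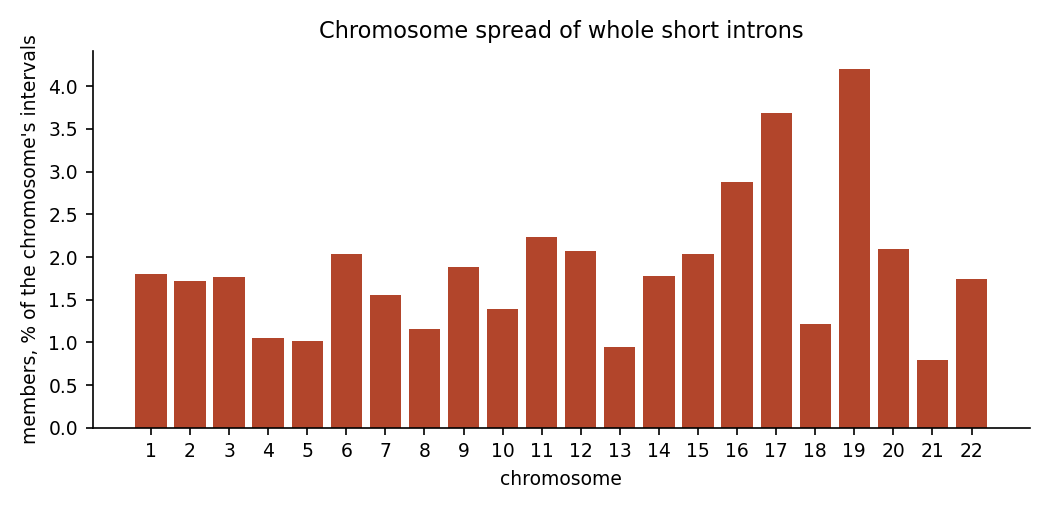
Members as % of all intervals of a chromosome (vertical axis) for chromosomes 1 to 22 (horizontal axis). Chromosomes 19 (4.21%), 17 (3.68%) and 16 (2.88%) stand highest and chromosome 21 (0.80%) lowest.

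Members scored higher than the intervals directly beside them. Members scored above 0 in 66.2%, against 62.3% of the intervals beside them and the background of 53.0% of all intervals on chromosomes 1 to 22. A score of 19 or more was held by 1598 members (22.4%), with a background of 10.3%. The median score of members was 4, with quartiles of 0 and 16, against a median of 2 with quartiles of 0 and 11 in the 12370 intervals beside them. Averaged over 22 chromosomes, members that had a non-member beside them had a mean score of 12.4 ± 3.17 and those neighbours 9.34 ± 2.77 (SD between chromosomes). The difference was 3.01 ± 1.02 (SD, n = 22 chromosomes), positive on 22 of 22 (two-sided sign-flip permutation test of 100000 resamples, p = 2e-05, adjusted 3e-05 over 3 tests). Chromosome 20 had the smallest difference, 1.12, and chromosome 7 the largest, 4.81.

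The direction of this difference depends on whether the score is divided by width. Per 100 nt of interval the difference was -1.46 ± 1.79 (SD, n = 22 chromosomes, permutation p = 0.00022), positive on 6 of 22 chromosomes. Within members the score did not follow width: over 4 bands of width the mean ran from 12.7 to 13.9, highest in the widest band, with a Spearman's rho of -0.01 between width and score.

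Score by score, 2943 members (42.2%) stood above the mean of their neighbours, 2049 (29.4%) below and 1980 (28.4%) level with it. Another 156 members had members on both sides and no such comparison. Member and neighbour scores followed each other closely, with a Spearman's rho of 0.86 across 6972 members that share genes. In 322 cases a member scored above 0 between neighbours at 0, and in 554 cases a member was at 0 beside neighbours above 0.

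Members also scored higher than intervals of the usual 100 nt in the same gap window. The mean over chromosomes was 12.4 ± 3.21 for members and 7.20 ± 2.20 for 100 nt intervals, a difference of 5.23 ± 1.91 (SD, n = 22 chromosomes), positive on 22 of 22 (sign-flip permutation p = 2e-05, adjusted 3e-05). It remained positive per 100 nt of width, at 1.85 ± 1.37 and on 20 of 22 chromosomes. The smallest difference was 2.37 (chromosome 18) and the largest 10.1 (chromosome 8).

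Against intervals of equal width outside the gap window, members had a lower mean score and a higher share above 0. The mean was 12.4 ± 3.21 for members and 14.3 ± 4.35 for the others (5027 intervals), a difference of -1.87 ± 2.45 (SD, n = 22 chromosomes), positive on 5 of 22 (sign-flip permutation p = 0.0025, adjusted 0.0025). The share above 0 went the other way, 5.00 ± 7.95 percentage points higher in members, on 17 of 22 chromosomes (permutation p = 0.0063). Intervals of 70 to 95 nt in the same gap window, which can hold still shorter whole introns, had a mean over chromosomes of 14.1 ± 4.51. The difference, members minus these, was -1.65 ± 3.38 (SD, n = 22 chromosomes), positive on 8, and was not tested.

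**Figure D4:**
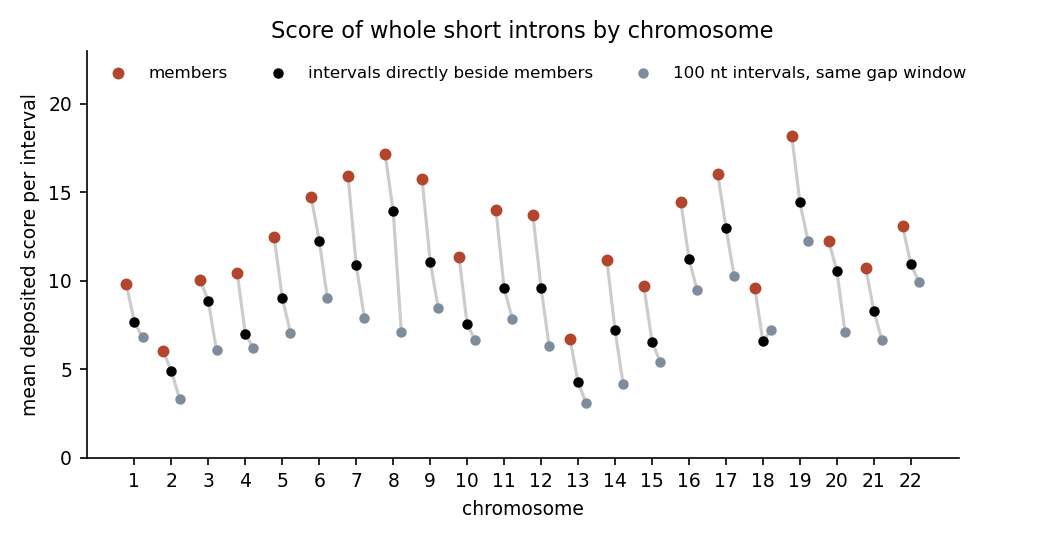
Mean deposited score per interval (vertical axis) on chromosomes 1 to 22 (horizontal axis) for members (red), the intervals directly beside members (black) and 100 nt intervals in the same gap window (grey). Members stand above both others on every chromosome, with 18.2 on chromosome 19 and 6.03 on chromosome 2 as their highest and lowest.

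Where the gene and so its strand was known, the neighbours could be ordered along transcription. In 3059 named members with 100 nt intervals on both sides, the interval upstream is the 3′ end of the preceding intron and the one downstream the 5′ end of the next. The mean scores over chromosomes were 7.66 ± 2.85 upstream, 9.95 ± 3.24 in members and 5.79 ± 2.03 downstream (SD between 22 chromosomes). Members stood above the upstream neighbour on 20 chromosomes and above the downstream neighbour on 22, and upstream stood above downstream on 20. Score by score, 1158 of the 3059 members stood above the upstream neighbour and 1331 above the downstream one. The upstream neighbour stood above the downstream one in 1146 cases and below it in 733. These are scores per interval, and members are wider than their 100 nt neighbours. The order per 100 nt of width was not computed. On that scale the difference from all flanking neighbours, which include intervals narrower than 100 nt, was -1.46. From 100 nt intervals in the same gap window it was 1.85. The ordering along transcription was made after other scores had been seen and was not tested.

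The 10 highest-scoring members lay in few genes, with scores of 122 to 125. The highest score was also 125 among all intervals on chromosomes 1 to 22 and among the intervals beside members. Whether 125 is an upper limit of the scale is not known. SHKBP1 held the top pair, each a 114 nt interval with a score of 125 (chr19:41083349-41083462 and chr19:41089393-41089506), between neighbours of 37 and 24 in the first case and 53 and 7 in the second. TLN1, which encodes talin, the link between integrins and actin, held scores of 123, 123 and 122, and its 11 members ranged from 14 to 123 with a median of 49. A single member each came from ACSM3, a medium-chain acyl-CoA synthetase gene, from UPF1, the helicase of nonsense-mediated decay, and from POLD1, the catalytic subunit of DNA polymerase δ, all with 122. Their immediate neighbours scored 20 and 15, 74 and 13, and 13 and 26. The remaining pair, chr9:131084010-131084133 and chr17:8109958-8110066, scored 124 each and matched no transcript. In 9 of the 10, both neighbours scored under 110, and the exception had 27 and 120.

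In 9 of the 12 genes with the most named members, no member scored above 3. TTN, which encodes titin, the giant spring of the sarcomere, held 65 members, 40 of them at 0 and the highest at 116. COL11A2 held 25, COL7A1 (anchoring fibrils of the skin) 21 and COL5A3 17, with highest scores of 1, 2 and 3. DNAH2, an axonemal dynein heavy chain gene, held 16 with a highest score of 3. SPTBN5, a β-spectrin gene, held 15, all at 0, and SSPO (SCO-spondin) 15 with a highest score of 1. At 13 members each stood COL1A1, LAMA5, LRP1, MYO15B and TEP1. Of these LAMA5, a laminin α chain gene, was above 0 in all 13, between 6 and 30 with a median of 9, and TEP1, of the telomerase and vault complexes, in 12, up to 8. The members of COL1A1, LRP1 and MYO15B stayed at 3 or less.

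Many genes had all their members above 0 or all at 0. Of 385 genes with at least 3 named members, every member was above 0 in 207, every member at 0 in 68 and 110 were mixed. Among all matched members 63.1% were above 0. Of the score variance among the 1791 members of these genes, 68.2% lay between genes. The share that unrelated scores would give in groups of this size was not computed. A further 2021 genes had 1 member.

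The gene lists set collagen and muscle genes apart from spliceosome genes in score, both in members and in the intervals beside them. The mean score was 0.23 in fibrillar collagen members and 0.27 beside them. It was 0.67 and 0.45 for the muscle list, and 42.7 and 31.6 for the spliceosome and branchpoint list. All 11 genes of the fibrillar collagen list had members, 96 in all, with a median score of 0, 15 above 0 and a highest score of 4, against a median of 3 and 63.1% above 0 over all 5244 matched members. COL2A1, the main cartilage collagen, had 10 members and all were at 0. In the muscle list, 48 members had a median of 0 and 10 were above 0. The cardiac and slow myosin heavy chain MYH7 held 7, all at 0 (a further pair could be MYH6 or MYH7 and was also at 0), and MYH7B held 7, with scores of 0, 1, 0, 0, 6, 7 and 9. MYH1 and MYH3 held 5 each, with highest scores of 2 and 1.

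The spliceosome and branchpoint list had 19 members in 11 genes, all above 0, with a median of 43, a lowest score of 9 and a highest of 108. PRPF8, the core protein of the catalytic spliceosome, held 5, with scores of 66, 73, 53, 31 and 93, against a mean of 49.8 in the intervals beside them. The helicase genes DHX16 and DHX38 scored 14, 17 and 13, and 20 and 22. EFTUD2, the U5 GTPase, scored 15 and 73, against a mean of 48.25 in the intervals beside them. Each of SF3A1, SF3A2 and SF3A3, the subunits of the SF3a complex that binds near the branchpoint, held 1 member, with scores of 46, 108 and 62.

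Of the erythroid list, 7 members lay in 4 genes, with a median of 5. SLC4A1, the band 3 anion exchanger, scored 0 and 0, and EPB41 and SPTB, of the red cell membrane skeleton, 13 each. The 4 members of the liver list (3 in APOB, 1 in APOC3) were all at 0. In the lymphocyte list, which had a median of 0, CD22 scored 3 and 0, ZAP70 0 and 0, and CD4 0. These are counts over few genes, and none of the lists was tested.

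**Figure D5:**
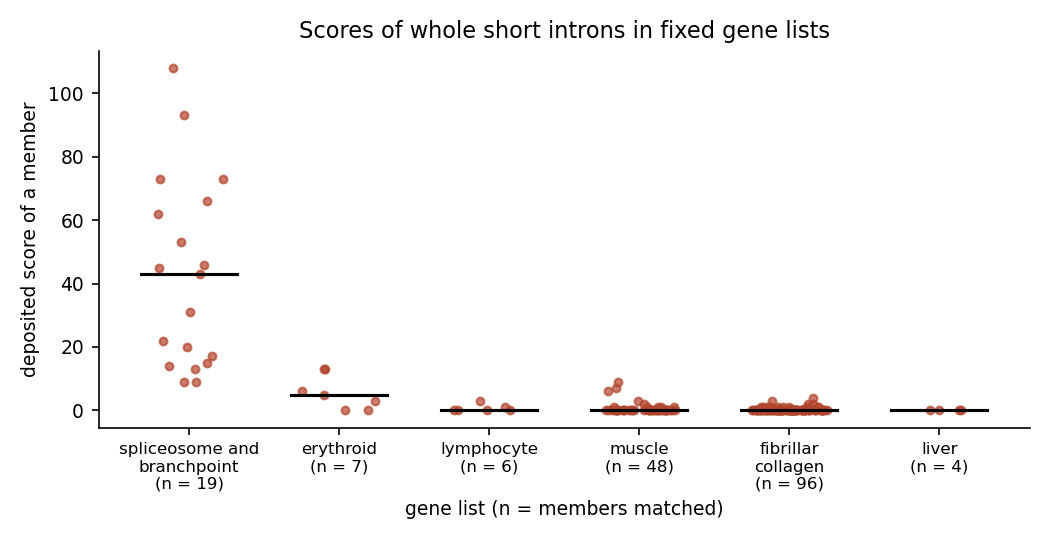
Deposited score (vertical axis) of each member matched to a gene of the list (horizontal axis), with the median as a black line. The 19 spliceosome and branchpoint members lie between 9 and 108 with a median of 43, and the 96 fibrillar collagen members between 0 and 4 with a median of 0.

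No member matched a ribosomal protein gene or a globin gene. The annotation holds 87 introns of 103 to 201 nt with flanking exons of 29 to 399 nt in ribosomal protein genes and 18 in globin genes. Over all genes 5244 members stood against 18725 such introns (28.0%), and the share was 77.4% (96 of 124) for fibrillar collagens, 64.0% (48 of 75) for muscle genes, 24% for lymphocyte, 20.2% for spliceosome and branchpoint, 17.1% for erythroid and 16.7% for liver genes. When the width and 1 gap sufficed, among all intervals of these widths, whatever their gaps, 6 of 87 ribosomal protein introns were found, against 4 on the next chromosome, and 6 of 18 globin introns against 3. For fibrillar collagens it was 117 of 124 against 8. The labels state that exons and parts highly transcribed in K562 were left out of the design, and the median number of annotated transcripts per gene ran from 3 (globins) to 9 (erythroid and ribosomal protein genes). The part of either in these shares was not tested.

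Whether the exon ends beside named short introns held more or less G and C than those beside longer introns depended on the comparison. Over the 50 exon bases on each side, the median was 55% GC with quartiles of 46.0% and 61.0%, against 51.0% with quartiles of 43.0% and 59.0% for introns longer than 201 nt in the same transcripts. Within the 2942 genes that had both, the mean was 52.0% beside short introns and 52.6% beside longer ones, and it was higher beside short introns in 45.3% of genes and on 3 of 22 chromosomes. The named introns lay between coding parts in 86.9%, against 88.3% of the longer introns. The upstream exon had a median of 116 nt and the downstream exon 119 nt, and 23.1% of introns lay between exons that were both multiples of 3 nt. First and last introns (1.34% and 0.10%) were nearly absent, since the rule asks for an interval within 400 nt on each side.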

How the data were processed

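GENCODE release 12 introns were targeted over 100 nt at both ends, per the labels' protocols, without exon parts, parts highly transcribed in K562 or repeats. The submitters' processing notes name hg19, Bowtie2, TopHat2 and bedtools, with no word on which made the deposited list. The deposited score is a whole number per interval with no stated normalisation, so no count model was fitted. Intervals were sorted by start, and gaps measured between neighbours. Gene names come from exact matches of 3 lengths to GENCODE release 29, in the annotation's order or next to a match of the same gene in that order. Exon sequences come from its transcripts. Differences in mean score were tested over 22 chromosomes with two-sided sign-flip permutation tests (100000 resamples, smallest possible p 1e-05), 3 of them adjusted together by Benjamini-Hochberg. Chromosomes are blocks, not replicates, so p-values measure only whether a direction recurs across them. A fixed list has no replicate error. The members, gene lists and tests were chosen with earlier results of these data known. The length matching was checked only on intervals simulated from the annotation it matches to. That check does not cover the difference between releases 12 and 29 or the parts left out of the design. Named were the 5 longest runs, the 10 highest scores, the 10 genes with most members (with ties), up to 4 genes per list (SF3A1, SF3A2 and SF3A3 were added after their values were seen) and 3 chromosomes at each end of the share. Some genes of the lists are not reported here by name. Python 3.11.15, numpy 2.4.6, pandas 2.3.3, scipy 1.17.1 and matplotlib 3.10.9 were used.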

Additional observations from a re-analysis of the deposited data

Results flagged for a closer look

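The running number of each interval is a field that no comparison above uses. Of the 7128 members, 49 (0.69%) lay beside a missing number. This was flagged only because the count was above 0, which any such case would be. The share was 1.61% (5736 of 356262) for the other intervals on chromosomes 1 to 22 and 6.90% (347 of 5027) for intervals of equal width outside the gap window. A missing neighbour lengthens a gap, and gaps over 400 nt are outside the rule. The lower share of members is thus partly built into the rule, and how far was not tested. The 49 members had a median score of 58, against 4 for the other members. The share was higher for members than for other intervals on 2 of 22 chromosomes.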

How the results depend on the processing

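Against their neighbours, members turned from a higher to a lower score when it was divided by width (-1.46 per 100 nt), and against equal widths outside the gap window the difference turned to 5.00 percentage points for the share above 0. Which scale suits the score cannot be told, as its meaning is not given. All other alternatives for these differences kept direction and side of the threshold: gap window to 300 nt, narrower or wider members, without chromosomes 1 and 2 or 17 and 19, named members only (against neighbours), and each chromosome left out in turn (2.93 to 3.10 against neighbours, 5.00 to 5.36 against 100 nt intervals, -2.08 to -1.64 against equal widths). Members in runs numbered 38468 when widths of 70 to 200 nt were taken, since that range includes the 100 nt ends. The number of members ran from 5875 (gaps of 50 to 250 nt) to 7409 (with chromosome X), and matched members from 4937 (basic transcripts) to 6136 (1 nt of tolerance). Accepting a gap before equal to the exon itself, chosen after seeing the data, gave 5664. Leaving out single chromosomes and the named members were also chosen then. No paired analysis was possible because the list holds no value per library that could be paired or left out.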

Other observations

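In TTN the high scores were gathered in 1 stretch. Of its 65 members, 5 scored 44 or more (44, 44, 76, 116 and 86), all within 6069 nt of hg19 (chr2:179474298-179480366), while the next highest score in the gene was 20 and the mean of the other 60 was 1.05. All 17 intervals of that stretch scored above 0, with a lowest of 24 and a median of 44. The stretch was singled out after its values were seen.

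Chromosome X, outside the rule, held 281 intervals of the same widths and gaps, 2.19% of its 12854, with a mean score of 15.1 and a median of 5.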
